A study of Mus musculus with 9 samples.

Results

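Arginine and polyamine metabolism genes were followed by RNA sequencing in mouse ear epidermis. The 8 genes described were Nos2, Odc1, Azin1, Oaz1, Amd1, Srm, Sms and Sat1. They were chosen by gene symbol from the deposited count table. Each symbol matched 1 of the 52550 genes in the table. The epidermal sheets came from wild-type mice labelled as C57BL/6 (C57BL/6J in the methods) and 8 weeks old, in 3 groups of 3 libraries. VAS + H2O mice received Vaseline on the skin and water by gavage. IMQ + H2O mice received imiquimod (IMQ), a TLR7 agonist in a cream that induces psoriasis-like dermatitis, and water by gavage. IMQ + XYF mice received IMQ and the herbal decoction Xiao-Yin-Fang (XYF) at 23.3 mg/g by gavage. The skin was treated for 5 days and the gavage lasted 10 days in all groups. The methods describe RNA of sheets from a pair of mice and a legend gives an n of 3 in each group, but whether the libraries of a group came from separate mice is not stated there or in the labels. The p-values therefore measure the spread between these libraries, which may be technical.

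Libraries held between 30298275 and 64771160 counts, and the 8 genes together took between 0.0554% and 0.0749% of them. All 8 keratinocyte markers were above 3 counts in every library, and their summed level was between 45000 and 68080 CPM (counts scaled to a common library size, with TMM factors), led by Krt10. The label of epidermis was thus met by its defining markers. The VAS + H2O replicate 2 library stood apart in other tissues' markers. Its 7 dermal fibroblast markers, led by Dcn, summed to 632 CPM against 72.9 and 108 CPM in the other VAS + H2O libraries. Its 5 skeletal muscle markers, led by Acta1, summed to 122 CPM against 6.22 and 7.66 CPM.

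Arginine stands at a branch point, from which it can be turned to ornithine or, by inducible nitric oxide synthase (Nos2), to nitric oxide and citrulline. Ornithine decarboxylase (Odc1) makes putrescine from ornithine, and its protein is sent to the proteasome by antizyme (Oaz1), which the antizyme inhibitor (Azin1) holds off. S-adenosylmethionine decarboxylase (Amd1) supplies the aminopropyl groups with which spermidine synthase (Srm) and spermine synthase (Sms) extend putrescine, and spermidine/spermine acetyltransferase (Sat1) marks the products for export or oxidation. Polyamines are needed by dividing cells, keratinocytes among them.

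Some of these genes have near-identical copies in the genome, and sequences are shown here because reads from such copies may be shared among the counts. Over the 1002 bases of coding sequence aligned between Amd1 and Amd2, 1 base differed (99.9% identity, GENCODE M21). The stretches below, 60 bases around that position in GRCm38, are from Amd1 (chr10:40290157-40290216, minus strand, coding exon) and Amd2 (chr10:35710735-35710794, minus strand, coding exon). The differing base is in capitals.
Amd1: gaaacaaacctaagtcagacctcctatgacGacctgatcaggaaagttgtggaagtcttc
Amd2: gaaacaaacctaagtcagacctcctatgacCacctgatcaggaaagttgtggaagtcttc

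Antizyme mRNA carries a stop codon at which the ribosome shifts frame when polyamines are abundant. The site is shown for Oaz1 (chr10:80828268-80828321, plus strand), its processed pseudogene Oaz1-ps (chr17:17345910-17345963, minus strand) and Oaz2 (chr9:65686245-65686298, plus strand), with the 7 bases that hold the last sense codon, the stop codon and the next base in capitals.
Oaz1: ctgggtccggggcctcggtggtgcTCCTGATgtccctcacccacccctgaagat
Oaz1-ps: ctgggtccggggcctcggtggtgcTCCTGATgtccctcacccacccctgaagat
Oaz2: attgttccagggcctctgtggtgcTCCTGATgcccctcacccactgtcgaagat
The Oaz1 and Oaz1-ps stretches were the same. Aligned over 685 bases, the annotated Oaz1 transcript and Oaz1-ps had 1 mismatch and 4 gap bases.

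Expressed per kilobase of exon, Odc1 and Sat1 had the highest mean levels of the set in VAS + H2O epidermis, 45.9 ± 6.97 and 43.1 ± 4.26 CPM per kilobase (SD, n = 3), and their ranges overlapped. Oaz1 at 27.1 ± 5.82, Srm at 27 ± 2.95 and Amd1 at 23.4 ± 1.72 CPM per kilobase followed, again with overlapping ranges. This order depends on the exon length used, the union of all annotated exons. For Oaz1 that union was 2558 bases, beside 1071 bases of the transcript aligned above, so its place in the order is uncertain. Reads counted to Oaz1-ps or Amd2 were also left out of these levels. Azin1 reached 11.6 ± 2.39 CPM per kilobase. Sms was lower, with 3.04 ± 0.319 CPM per kilobase. In IMQ + H2O epidermis the order began with Srm at 59.6 ± 6.02, Odc1 at 58.2 ± 11 and Sat1 at 53.2 ± 5.19 CPM per kilobase, which overlapped. Nos2 was last in all groups, with means from 0.0203 to 0.182 CPM per kilobase.

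**Figure D1:**
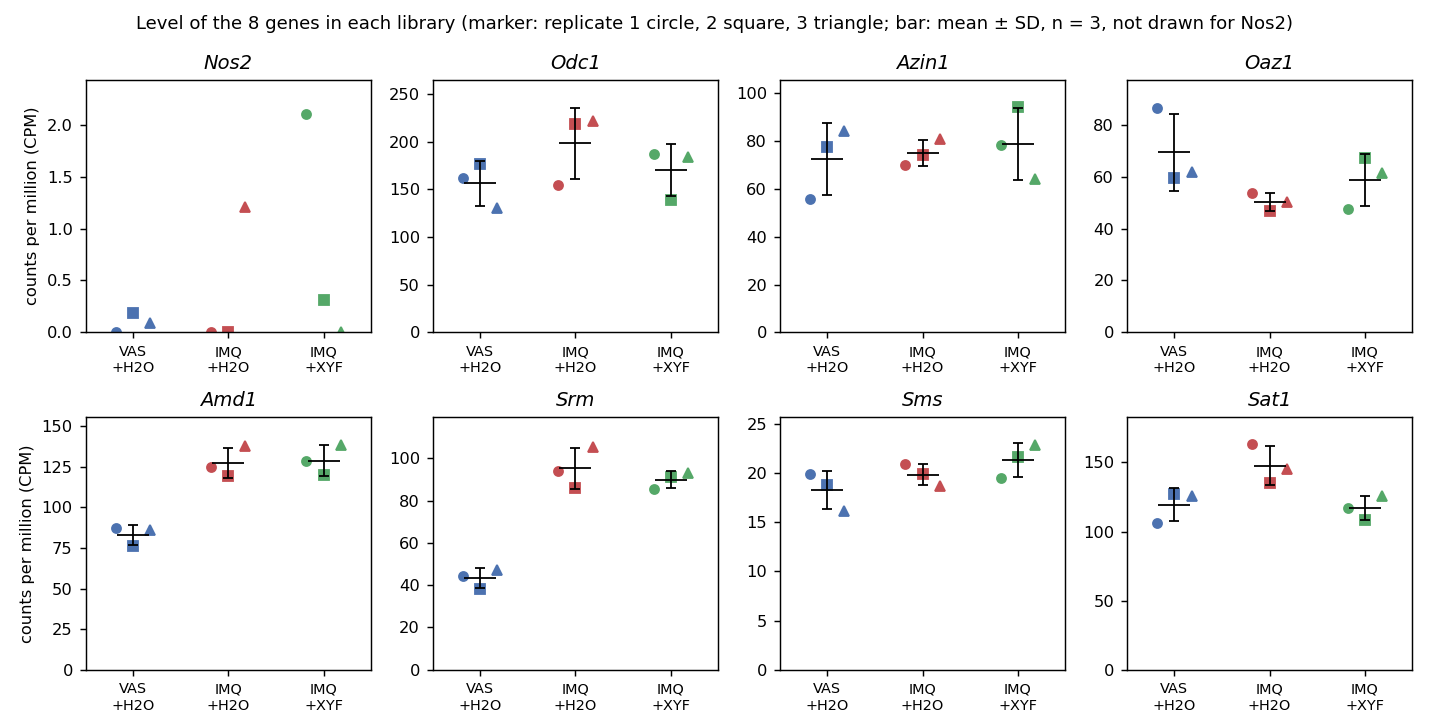
Level of each gene in CPM (vertical axis, from 0) in the 3 libraries of each group, with the mean and SD as a bar (n = 3; no bar for Nos2, which was near 0 counts in most libraries). Srm and Amd1 lay higher in all 6 imiquimod libraries than in the 3 VAS + H2O libraries.

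The effect of imiquimod was read from IMQ + H2O against VAS + H2O. Srm and Amd1 rose, while the other 5 genes tested did not pass the threshold. Thus 2 of 7 genes passed an adjusted p of 0.05 (edgeR), against 22.1% of all 18009 genes tested (12.7% higher and 9.41% lower). Srm, 1 of 7, also met the study's cutoff for a differentially expressed gene (DEG), which asks besides for a log2 fold change of 1 or more in size and which 7.68% of all genes tested met. The study's methods name DESeq2 for that cutoff, and here it was applied to edgeR values. The median log2 fold change of the 7 genes was 0.29, beside -0.03 over all genes tested. Nos2 was too low to be tested.

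Markers of several cell types moved in this comparison too. In bulk RNA, fewer cells of a type and less RNA per cell cannot be told apart. All 6 of the 7 cartilage markers that could be tested fell, namely Acan, Col2a1, Col9a1, Col11a2, Comp and Cnmd. The cartilage sum, led by Acan, was 189, 448 and 206 CPM in VAS + H2O and 80.8, 56.1 and 37.1 CPM in IMQ + H2O, with Matn3 at 0 counts in each IMQ + H2O library. Of the 8 keratinocyte markers, Krt1, Krt14 and Dsg3 rose and Krt15 fell, with log2 fold changes from -2.10 to 1.45 over the list. Among 6 T cell markers Thy1 rose (1.24) while Cd3d, Cd3e, Cd3g and Cd2 fell, and the median was -0.74. An unadjusted p under 0.05 occurred for 6823 of all 18009 genes tested (edgeR). The 7 dermal fibroblast markers had a median of -2.38, with Fbln1 higher and Col1a2 lower past the threshold and 6 at an unadjusted p under 0.05. The 4 skeletal muscle markers tested had a median of -3.81, with 3 at an unadjusted p under 0.05 and each adjusted p above 0.05. The highest library of both of these lists was VAS + H2O replicate 2. Cxcr2, of 2 neutrophil markers tested, and Cd68, of 7 monocyte and macrophage markers tested, rose (all edgeR). Medians were between -0.92 and -0.02 for Langerhans cells, endothelium, melanocytes and red blood cells. The part of these cells in the results below was not tested. The share of counts from mitochondrial genes was 3.358%, 4.122% and 3.23% in VAS + H2O and 2.937%, 2.83% and 3.217% in IMQ + H2O. All IMQ + H2O libraries were thus below all controls, and the part of this in the results was not tested either.

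Srm, which makes spermidine, lies at chr4:148591503-148594993 (plus strand). Its level was 44.6, 38 and 47.1 CPM in VAS + H2O, 94.2, 86.1 and 105 CPM in IMQ + H2O, and 85.4, 91.2 and 93.1 CPM in IMQ + XYF. The lowest imiquimod library was well above the highest control library. The log2 fold change in IMQ + H2O was 1.13 ± 0.11 (SE), a fold of 2.18 with a 95% interval from 1.81 to 2.63 (edgeR, adjusted p = 0.0054). Srm ranked 81 of 18009 genes by p. Without VAS + H2O replicate 2 the log2 fold change was 1.05 (edgeR, adjusted p = 0.022).

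Amd1 (chr10:40287458-40302186, minus strand), which supplies the aminopropyl donor, was at 87.1, 76 and 86 CPM in VAS + H2O, at 125, 119 and 138 CPM in IMQ + H2O and at 129, 120 and 138 CPM in IMQ + XYF. Again the controls lay below all 6 imiquimod libraries. The log2 fold change in IMQ + H2O was 0.60 ± 0.09 (SE), a fold of 1.52 with a 95% interval from 1.31 to 1.76 (edgeR, adjusted p = 0.0096). Without VAS + H2O replicate 2 it was 0.55 (edgeR, adjusted p = 0.037). Amd2 was counted at 17.9, 18.2 and 19.5 CPM in VAS + H2O and at 27.3, 27.9 and 32 CPM in IMQ + H2O, a log2 fold change of 0.64 ± 0.10 (edgeR, adjusted p = 0.012). The pseudogene Amd-ps3 had a log2 fold change of 0.66 (edgeR, adjusted p = 0.015) and Amd-ps4 had one of 0.56 (edgeR, adjusted p = 0.12), while Amd-ps1 and Amd-ps5 had at most 1 count in any library. Given the near-identity of the Amd1 and Amd2 coding sequences, how reads were divided between that pair is uncertain, and the sequences of the pseudogenes were not compared. Amd2 and the 4 Amd pseudogenes took between 23.7% and 26.3% of the summed counts in every library. With all summed, a choice made after the values were seen, the log2 fold change was 0.65 ± 0.09 (edgeR, adjusted p = 0.0079).

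The region upstream of Amd1 is shown because Amd1 and Srm moved together over the libraries (Pearson r = 0.98 in log2 CPM over 9 libraries, which fall into groups), and Amd1 is the one of the pair with an entry in the RefSeq promoter table used (GRCm38.p6). The 250 bases before the RefSeq start, chr10:40302189-40302438 on the minus strand, are given with the GC box GGGCGG, searched on both strands (as GGGCGG or CCGCCC), in capitals.
Amd1 upstream: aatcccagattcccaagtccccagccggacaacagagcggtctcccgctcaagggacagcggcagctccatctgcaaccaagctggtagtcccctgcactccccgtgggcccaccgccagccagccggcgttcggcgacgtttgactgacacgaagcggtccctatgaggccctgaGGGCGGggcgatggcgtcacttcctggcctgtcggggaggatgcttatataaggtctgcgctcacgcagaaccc
Over windows from 250 bases before to 50 bases after the start, 35.7% of the 32851 windows in the table held this GC box. It occurred for Amd1, Odc1, Sat1 and Sms among the 5 genes of the set that matched the table, which also included Oaz1. The E-box CACGTG, searched likewise, occurred in 7.15% of all windows and, in the set, in a window of Sms alone. These matches describe the letters of the windows only.

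Sms, the third enzyme of this branch, had 19.9, 18.8 and 16.2 CPM in VAS + H2O and 20.9, 19.9 and 18.7 CPM in IMQ + H2O. These ranges overlapped, and the log2 fold change of 0.10 had a 95% interval from -0.18 to 0.38 (edgeR, adjusted p = 0.56). Its pseudogene Sms-ps had a log2 fold change of 0.37 (edgeR, adjusted p = 0.23).

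Nos2, the inducible nitric oxide synthase, was highest in replicate 3 of IMQ + H2O and in replicate 1 of IMQ + XYF. Within their groups, those libraries were also highest in neutrophil markers and in monocyte and macrophage markers. They were highest in dermal fibroblast markers as well, at 70.2 CPM against 58.7 and 61.6 CPM in IMQ + H2O and at 221 CPM against 182 and 88.8 CPM in IMQ + XYF. T cell markers were highest in IMQ + H2O replicate 3 but in IMQ + XYF replicate 2, and Langerhans cell markers in IMQ + XYF replicate 1 but in IMQ + H2O replicate 2. The counts of Nos2 were 0, 6 and 3 in VAS + H2O, 0, 0 and 52 in IMQ + H2O, and 134, 10 and 0 in IMQ + XYF. A count of 0 allows up to 3 counts, or between 0.0635 and 0.104 CPM in the 4 libraries without a Nos2 count, counting error only. Nos2 thus came almost wholly from 1 library in each imiquimod group. The 12 monocyte and macrophage markers, led by Csf1r, summed to 51.6, 43.4 and 41.6 CPM in VAS + H2O, 41.7, 61 and 85.2 CPM in IMQ + H2O, and 71.5, 40.3 and 44.1 CPM in IMQ + XYF. Retnla, a gene of alternatively activated macrophages, was at 0 counts in all libraries except IMQ + XYF replicate 1, where it had 5. Chil3, another such gene, had 0, 6 and 77 counts in IMQ + H2O and 65, 7 and 0 counts in IMQ + XYF, and 0 counts in each control.

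The 11 neutrophil markers, led by Cxcr2, summed to 18, 16.9 and 19.9 CPM in VAS + H2O, 51.6, 57.6 and 155 CPM in IMQ + H2O, and 100, 66.3 and 70.1 CPM in IMQ + XYF. Much of this sum was Cxcr2 alone, which was at 10.6 to 12.7 CPM in the controls and made up 49.2 of 51.6 CPM in IMQ + H2O replicate 1, where 8 of the 11 markers were at 0 counts, and 60.9 of 66.3 CPM in IMQ + XYF replicate 2, where 6 were. Elane was at 0 counts in all 9 libraries, and Ly6g, the defining granulocyte gene, was at 0 counts in all controls and reached 22 counts at most. Within each imiquimod group Nos2 was thus highest where neutrophil, macrophage and dermal fibroblast markers were highest. This held for the highest library of each group only. IMQ + XYF replicate 3 had no Nos2 count but higher neutrophil and macrophage sums than replicate 2, which had some Nos2 counts. The dermal fibroblast sum of replicate 3 was lower. Cartilage, endothelial, melanocyte, skeletal muscle and red blood cell markers did not peak in both of the libraries with the highest Nos2. The part of these cell types in the Nos2 levels was not tested. IMQ + H2O replicate 3 and IMQ + XYF replicate 1 also had the lowest keratinocyte sums of their groups, 56740 and 57020 CPM. Their total counts and their shares of counts from mitochondrial genes, 3.217% and 3.665%, were the highest of their groups. The part of these values in Nos2 was not tested either.

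**Figure D2:**
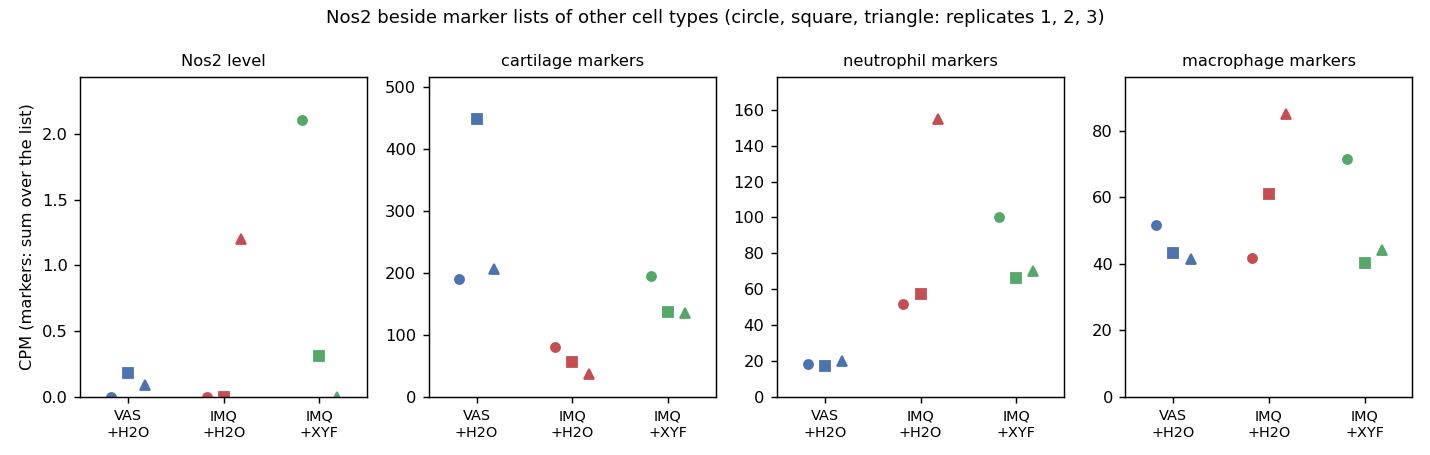
Nos2 in CPM and the summed CPM of marker lists for cartilage, neutrophils and macrophages, per library in each group (each vertical axis starts at 0). The cartilage sum was lower in the 3 IMQ + H2O libraries than in the controls, and IMQ + H2O replicate 3 (red triangle) and IMQ + XYF replicate 1 (green circle) had the highest Nos2, neutrophil and macrophage values of their groups.

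Odc1, the first enzyme of polyamine synthesis (chr12:17544794-17551505, plus strand), was at 162, 176 and 130 CPM in VAS + H2O, at 155, 218 and 221 CPM in IMQ + H2O and at 188, 139 and 184 CPM in IMQ + XYF. In IMQ + H2O, 2 libraries lay above all controls and 1 lay among them. The log2 fold change of 0.33 had a 95% interval from -0.09 to 0.74 (edgeR, adjusted p = 0.22). Without IMQ + H2O replicate 1, the lowest library of its group, it was 0.52 (edgeR, adjusted p = 0.072).

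Oaz1, the antizyme that destabilises Odc1 protein, was at 86.5, 59.6 and 61.8 CPM in VAS + H2O, at 53.7, 46.7 and 50 CPM in IMQ + H2O and at 47.5, 67.1 and 61.5 CPM in IMQ + XYF. The first 2 groups did not overlap, but the log2 fold change of -0.48 ± 0.15 did not pass the threshold (edgeR, adjusted p = 0.064). Without VAS + H2O replicate 1, the highest library, it was -0.30 (edgeR, adjusted p = 0.11). DESeq2 gave an adjusted p of 0.03 for a log2 fold change of -0.47. Oaz1-ps was counted at 35.8, 31.5 and 36.1 CPM in VAS + H2O and at 35.3, 32 and 37.5 CPM in IMQ + H2O, a log2 fold change of 0.01 (edgeR, adjusted p = 0.97). Its share of the summed counts was between 29.3% and 44.4% across libraries. With Oaz1 and Oaz1-ps summed, a choice made after the values were seen, the log2 fold change was -0.27 ± 0.12 (edgeR, adjusted p = 0.16), a smaller value than for Oaz1 alone.

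Azin1, the antizyme inhibitor, had 55.7, 77.7 and 84.1 CPM in VAS + H2O and 70, 74 and 80.9 CPM in IMQ + H2O, and the IMQ + H2O range lay inside that of the controls (log2 fold change 0.04, 95% interval from -0.34 to 0.41, edgeR, adjusted p = 0.89). Sat1, which acetylates spermidine and spermine (chrX:155213132-155216449, minus strand), was at 106, 127 and 125 CPM in VAS + H2O and at 163, 135 and 145 CPM in IMQ + H2O. All IMQ + H2O libraries were above all controls, and the log2 fold change was 0.29 ± 0.11 (edgeR, adjusted p = 0.1). Groups without overlap occurred for 4 of the 7 genes tested, Oaz1, Amd1, Srm and Sat1, against 45% of all genes tested.

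**Figure D3:**
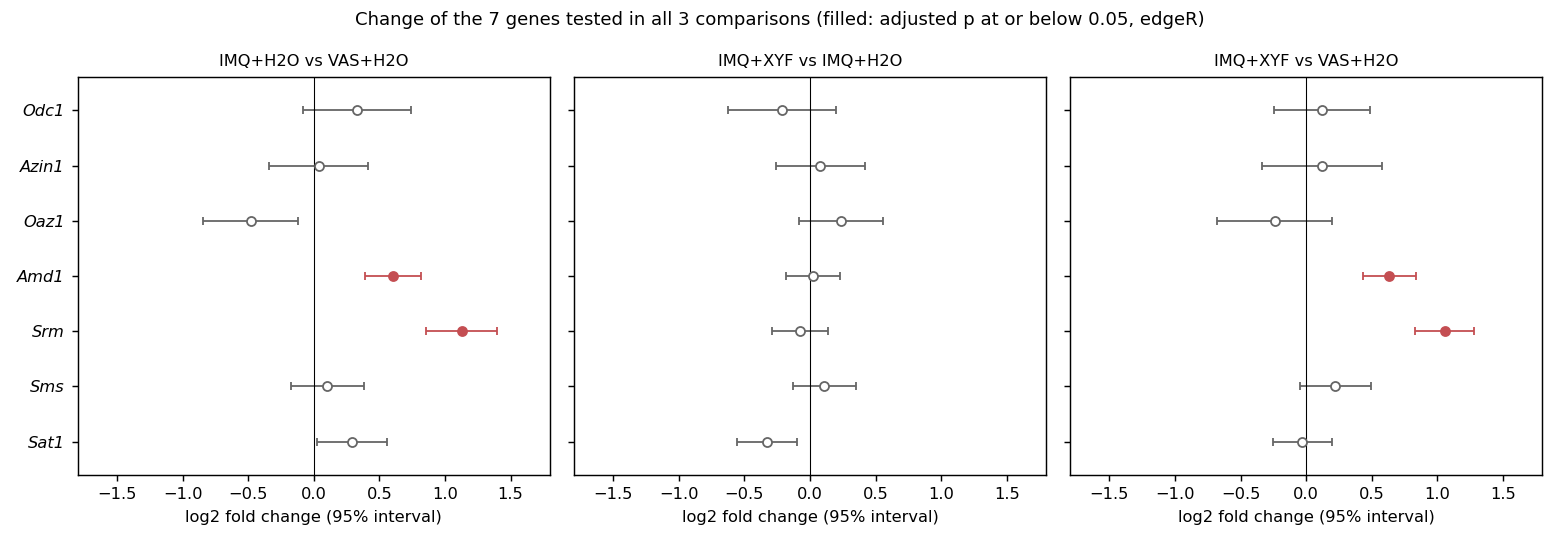
Log2 fold change (horizontal axis) with its 95% interval for the 7 genes tested in all 3 comparisons, with filled points for an adjusted p at or below 0.05 (edgeR). Amd1 and Srm were filled in IMQ + H2O and in IMQ + XYF against VAS + H2O, and none was in IMQ + XYF against IMQ + H2O.

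Ratios within a library do not depend on its scaling, and were described without a test. The count ratio of Odc1 to its inhibitor Oaz1 was 1.88, 2.96 and 2.1 in VAS + H2O, 2.89, 4.67 and 4.42 in IMQ + H2O, and 3.95, 2.07 and 2.99 in IMQ + XYF. The lowest IMQ + H2O library was within the control range and the others were above it. The ratio used the counts of Oaz1 alone, and Oaz1-ps held between 29.3% and 44.4% of the summed counts. It thus depends on how reads were divided between Oaz1 and Oaz1-ps. The ratio of Sat1, on the catabolic side, to Srm, on the synthetic side, was 2.38, 3.35 and 2.66 in VAS + H2O, 1.73, 1.57 and 1.38 in IMQ + H2O, and 1.37, 1.19 and 1.35 in IMQ + XYF. Here both imiquimod groups lay below the controls in every library. This ratio restates the Srm and Sat1 levels given above and is not a separate result. Other catabolic genes moved both ways in IMQ + H2O. Smox rose (log2 fold change 1.90, adjusted p = 0.005) and Sat2 fell (-2.25, adjusted p = 0.03, both edgeR). For Odc1 to Azin1 the mean was 2.24 ± 0.684 in the controls, 2.63 ± 0.378 with IMQ alone and 2.25 ± 0.709 with XYF added (SD, n = 3).

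**Figure D4:**
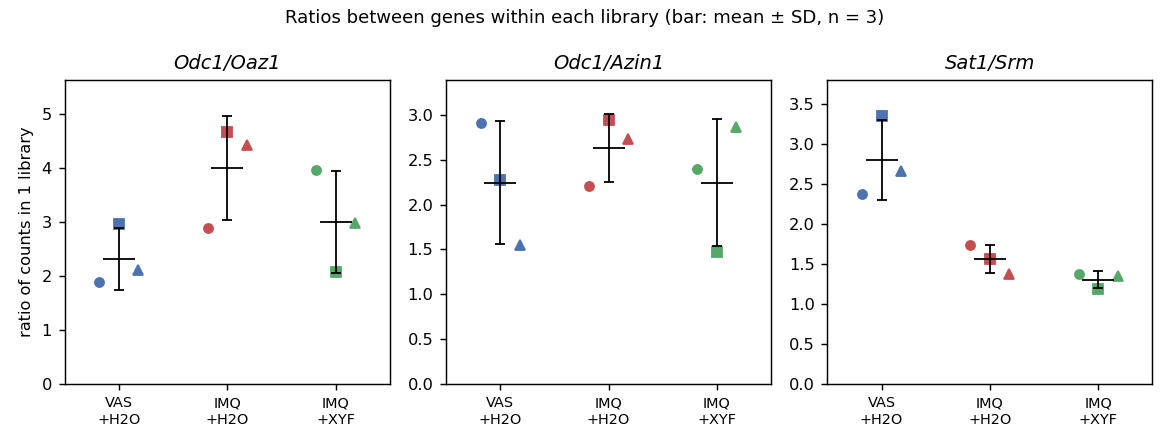
Ratio of the counts of 2 genes within each library (vertical axes from 0), with the mean and SD of each group (n = 3). For Sat1 to Srm the 6 imiquimod libraries, 1.19 to 1.73, sit below the 3 VAS + H2O libraries, 2.38 to 3.35.

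Around these genes, a list of 51 other genes of arginine, polyamine and methionine metabolism was followed. In IMQ + H2O against VAS + H2O, 45 of them were tested, 15 rose, 2 fell and 28 did not pass the threshold (edgeR). This was 37.8% of those tested, beside 22.1% of all genes. The list was chosen with earlier results of these data known, so its share is a description and cannot show an excess. The median log2 fold change was 0.30 in the list. Without VAS + H2O replicate 2, 10 genes passed instead of 17, or 22.2% of those tested, beside 7.77% of all genes in that refit (edgeR, adjusted p alone).

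Among genes of arginine uptake and resynthesis, 3 of 8 rose. These were the cationic amino acid transporter Slc7a1 (log2 fold change 0.83, adjusted p = 0.0081), Slc3a2, the heavy chain of amino acid transporters (0.59, adjusted p = 0.01), and Ass1, argininosuccinate synthase, which rebuilds arginine from citrulline (0.69, adjusted p = 0.014, all edgeR). Among 5 tested genes of nitric oxide synthesis and its regulators, 3 rose. Gch1, the first enzyme of tetrahydrobiopterin synthesis, was at 7.11, 7.22 and 8.2 CPM in VAS + H2O and at 22.6, 23.4 and 25.5 CPM in IMQ + H2O, a log2 fold change of 1.65 ± 0.12 (edgeR, adjusted p = 0.0021). Ddah1, which breaks down the nitric oxide synthase inhibitor ADMA, had 2.66 ± 0.57 (edgeR, adjusted p = 0.021) from 13 to 34 counts in the controls. Prmt1, an arginine methyltransferase, had 0.79 (edgeR, adjusted p = 0.024).

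Of 7 tested genes that use arginine or ornithine otherwise, Aldh18a1, which starts proline and ornithine synthesis from glutamate, rose (0.98, edgeR, adjusted p = 0.012). Polyamine oxidation and acetylation outside the set had 3 genes tested, of which 1 rose and 1 fell. Smox, the spermine oxidase that returns spermine to spermidine, was at 16.6, 23.4 and 19.3 CPM in VAS + H2O, at 66.1, 66.1 and 91.4 CPM in IMQ + H2O and at 68.8, 70.4 and 73.4 CPM in IMQ + XYF. The groups were far apart, with a log2 fold change of 1.90 ± 0.19 in IMQ + H2O (edgeR, adjusted p = 0.005). Sat2, a paralog of Sat1, fell from counts of 62, 80 and 35 to counts of 16, 12 and 7, a log2 fold change of -2.25 ± 0.55 (edgeR, adjusted p = 0.03). Its level was highest in VAS + H2O replicate 2.

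In the supply and salvage of the methionine moiety, 4 of 8 genes passed. Ahcy, which hydrolyses S-adenosylhomocysteine (log2 fold change 1.41, adjusted p = 0.0058), Mtap, which recovers the methylthioadenosine left by Srm and Sms (1.23, adjusted p = 0.0081), and Enoph1, further along that salvage (0.52, adjusted p = 0.018), rose, and Mat2b, the regulatory subunit of methionine adenosyltransferase, fell (-0.60, adjusted p = 0.02, all edgeR). Spermidine is the substrate for hypusine in the translation factor eIF5A. Eif5a itself rose (0.73, adjusted p = 0.013), as did Dohh, which completes hypusine (0.35, adjusted p = 0.04), 2 of 4 genes of that step. In GENCODE M21, 47.46% of the Dohh exon length was shared on the same strand with the protein-coding gene Gm48551. How reads were divided between Dohh and Gm48551 is uncertain. Atp13a4, a polyamine transporter of the P5B ATPases, rose (1.29, adjusted p = 0.0058), 1 of 4 transporters tested. In the Myc network, Mxd1 rose (0.36, adjusted p = 0.045), 1 of 4 genes tested, and Myc had 0.40 (adjusted p = 0.08, all edgeR). Another gene of that network was lower, with a log2 fold change of -1.36 that did not pass the threshold (edgeR). Neither of the other antizymes passed by edgeR, Oaz2 with a log2 fold change of -0.45 (edgeR, adjusted p = 0.061). DESeq2 called both Oaz2 and Myc.

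**Figure D5:**
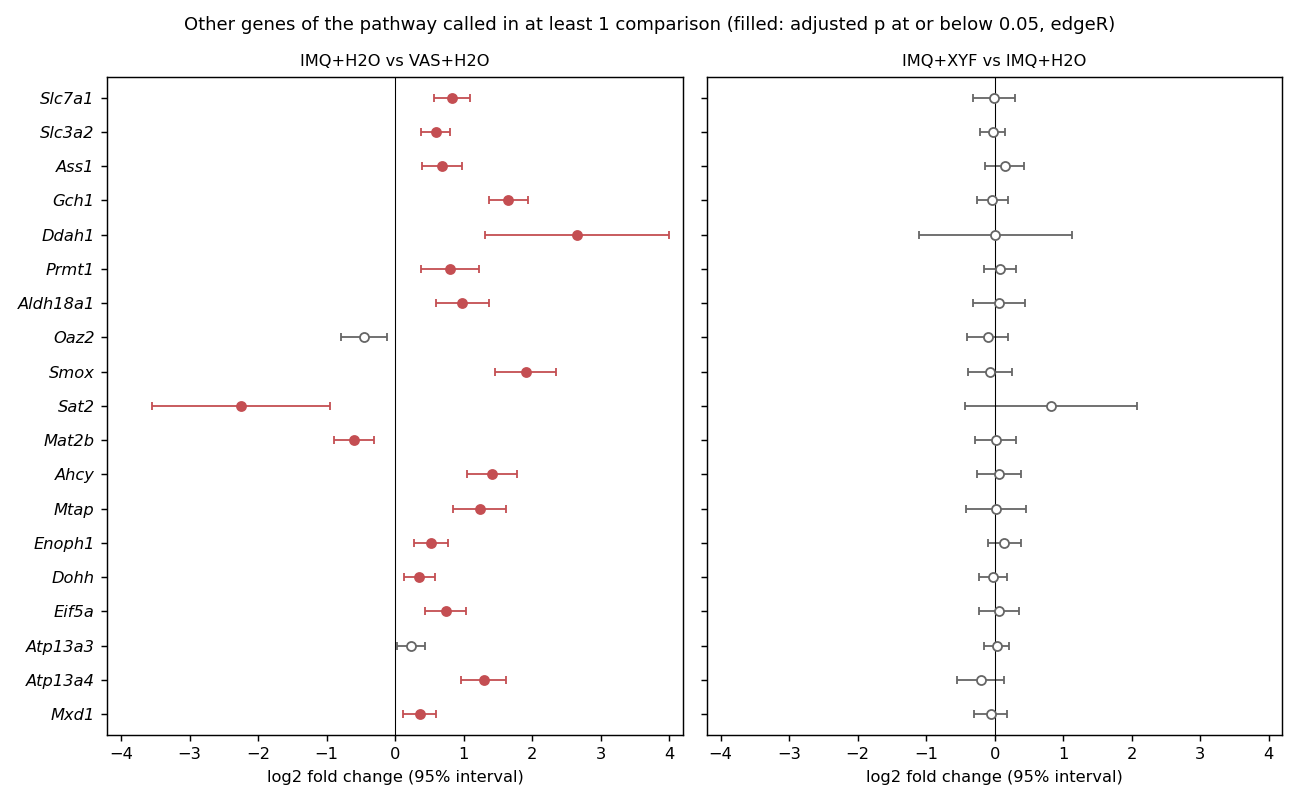
Log2 fold change (horizontal axis) with its 95% interval for the 19 pathway genes that passed an adjusted p of 0.05 (edgeR, filled points) in at least 1 of the 3 comparisons. The left panel, IMQ + H2O against VAS + H2O, holds 17 filled points, 15 to the right of 0, and the right panel, IMQ + XYF against IMQ + H2O, holds none.

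The effect of XYF on treated skin was read from IMQ + XYF against IMQ + H2O. No gene of the set passed an adjusted p of 0.05, 0 of 8 tested, beside 0.0281% of all 17793 genes tested (5 genes). An unadjusted p under 0.05 occurred for 1 of the 8 and for 966 of all genes tested (edgeR). DESeq2 likewise gave 0 genes of the set, with 1 at an unadjusted p under 0.05, though it called 166 genes in all. By edgeR that gene was Sat1, at 163, 135 and 145 CPM in IMQ + H2O and 117, 108 and 126 CPM in IMQ + XYF. The IMQ + XYF libraries all lay below the IMQ + H2O libraries and within the control range of 106 to 127 CPM. The log2 fold change was -0.33 ± 0.10, a fold of 0.797 with a 95% interval from 0.681 to 0.931 (edgeR, adjusted p = 0.64). Sat1 ranked 307 of 17793 genes by p. It was the 1 gene of 8 whose groups did not overlap, against 10.7% of all genes tested.

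Srm and Amd1, which had risen under imiquimod, were given narrow intervals in this comparison. The log2 fold change of Srm was -0.08 with a 95% interval from -0.29 to 0.14, and that of Amd1 was 0.02 with an interval from -0.18 to 0.23. Of the other genes, Sms had 0.11, Azin1 0.08, Oaz1 0.23 and Odc1 -0.21, each with an edgeR adjusted p of 0.9999. Nos2 was less precise and was fitted as higher, with an interval from -3.02 to 5.03, and its direction turned when IMQ + XYF replicate 1 was left out (-1.44).

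Among the 51 pathway genes, 0 of 43 tested passed in this comparison (edgeR and DESeq2). By each tool 1 had an unadjusted p under 0.05, beside 966 of all 17793 genes by edgeR. With edgeR that pathway gene was the arginine transporter Slc7a2 (0.51, adjusted p = 0.77), named after its value was seen. The 17 genes called under imiquimod had log2 fold changes from -0.21 to 0.82 in IMQ + XYF against IMQ + H2O, and from -0.21 to 0.15 without the low-count Sat2. Cartilage markers were higher in IMQ + XYF, where they summed to 195, 136 and 136 CPM. Their median log2 fold change was 2.04, with 6 of the 6 tested at an unadjusted p under 0.05 (edgeR). Of these, Col9a1 and Col11a2, 2 of 6, rose past the threshold (edgeR). Both calls were lost with the replicate block, without IMQ + H2O replicate 2 and without any 1 IMQ + XYF library, where 0 genes passed. Dermal fibroblast markers summed to 221, 182 and 88.8 CPM in IMQ + XYF and to 58.7, 61.6 and 70.2 CPM in IMQ + H2O. All 7 were higher, with a median log2 fold change of 1.25, and 6 had an unadjusted p under 0.05 but 0 passed the threshold (edgeR). Skeletal muscle markers summed to 15.9, 36.5 and 5.05 CPM in IMQ + XYF and to 3.21, 6.37 and 6.65 CPM in IMQ + H2O, so the groups overlapped, and the 4 tested had a median log2 fold change of 2.44, with 2 at an unadjusted p under 0.05. The 5 red blood cell markers, led by Hba-a1, had a median of -0.89, with 1 at an unadjusted p under 0.05. The part of these cells in these values was not tested.

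IMQ + XYF was finally set against VAS + H2O. This comparison shares its controls with the first one, so its values are given beside those above and not as a repeat of them. Srm (log2 fold change 1.06 ± 0.09, adjusted p = 0.001) and Amd1 (0.63 ± 0.08, adjusted p = 0.0031) rose, 2 of 7 genes tested, against 28.7% of 17954 genes (edgeR, 16.7% higher and 12% lower). Srm alone met the DEG cutoff, which 7.64% of all genes met, but did not meet it without VAS + H2O replicate 2 (0.97, edgeR, adjusted p = 0.0034). Amd1 and Srm, 2 of 7 genes, had groups without overlap, against 47.5% of all genes. With Amd1, Amd2 and the pseudogenes summed, the value was 0.65 (edgeR, adjusted p = 0.0026). Sat1 had -0.03 with a 95% interval from -0.26 to 0.20. Among the pathway genes 18 of 44 tested passed, 16 higher and 2 lower, or 40.9%. Of the 17 genes called in IMQ + H2O, 16 were among them and Sat2 was not (-1.42, edgeR, adjusted p = 0.054). The additional 2 were the transporter Atp13a3 (0.27, adjusted p = 0.029) and Oaz2 (-0.54, adjusted p = 0.0098, both edgeR). Oaz2 was at 23.6, 24 and 20.1 CPM in VAS + H2O, at 15, 15.7 and 19.3 CPM in IMQ + H2O and at 15.2, 15 and 16.3 CPM in IMQ + XYF, with the controls above all other libraries.

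Cell type markers moved in IMQ + XYF against VAS + H2O as well. Of 8 keratinocyte markers, Krt1, Krt14 and Dsg3 rose and Krt15 fell, and of 6 T cell markers Thy1 rose while Cd3d, Cd3e and Trdc fell. The neutrophil markers Cxcr2 and Csf3r, 2 of 3 tested, rose. Mfge8 of 5 Langerhans cell markers rose too, but 3 were lower and the list had a median log2 fold change of -0.17. Fbln1 of 7 dermal fibroblast markers also rose, while the other 6 were lower and the list had a median of -0.83. Of the 5 red blood cell markers, which had a median log2 fold change of -1.58, Alas2 fell (all edgeR). Medians were -0.87 for cartilage and -1.36 for skeletal muscle. The part of these cells in this comparison was not tested.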

How the data were processed

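RNA of ear epidermal sheets had been sequenced in 9 libraries, and the authors deposited whole-number read counts per gene, without normalization. Reads were aligned to GRCm38 with STAR 2.5, per the submitters' processing notes; the counting tool and its strand setting are not given in the sources used here. For every comparison the 6 libraries concerned were fitted alone, after filterByExpr, with TMM scaling and the quasi-likelihood test of edgeR 4.0.16 in R 4.3.3. P-values were adjusted over all genes tested by the Benjamini-Hochberg method, with a threshold of 0.05. The study's cutoff for a DEG adds an absolute log2 fold change of 1, and its methods name DESeq2 for that step. Alternatives were DESeq2 1.42.0, RLE factors, other count filters, 1 fit of all 9 libraries, a replicate block, leave-one-out fits and other cutoffs; summing Amd1, Oaz1 and Sms with their copies was added after seeing the data. The procedure was tested on simulated data. CPM were scaled by TMM over the 18492 genes that passed the filter in the 9 libraries. Levels per kilobase used the union of exons in GENCODE M21 (GRCm38), an annotation release other than the one used for counting. Where a symbol occurred more than once, the gene whose identifier carries it in the gene name table used was taken. The genes of the set, the pathway list and the marker lists were chosen with earlier results of these data known. Of the set, 2 genes are not reported here, nor is 1 gene of the pathway list, and all were left out of all counts over these lists. The 8 other genes are named, and pathway genes are named where they passed the threshold in any comparison. Copies and pseudogenes of these genes found by symbol, the most abundant marker of each list and the 3 genes most like Odc1 and Sat1 (Pearson r, log2 CPM, mean of at least 10 CPM) are named too. Myc, Retnla, Chil3, Ly6g, Elane, Matn3, Slc7a2 and the cell type markers past the threshold in any comparison were named outside this rule, after their values were seen.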

Additional observations from a re-analysis of the deposited data

How the results depend on the processing

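Srm and Amd1 kept their calls against VAS + H2O in both imiquimod groups in every refit by adjusted p. Amd1 did not reach the fold change of a DEG, and Srm fell short of it in IMQ + XYF without VAS + H2O replicate 2 (0.97). Of 272 refitted fold changes of the 8 genes, 260 kept direction and side of the threshold, 1 gained a call (Oaz1 in IMQ + H2O with DESeq2) and 11 changed sign. The sign changes all came from leaving out 1 library, for Azin1 (from -0.13 to 0.19 in IMQ + H2O and from -0.036 to 0.26 in IMQ + XYF against VAS + H2O, from -0.067 to 0.21 between the imiquimod groups), Sat1 in IMQ + XYF against VAS + H2O (from -0.11 to 0.043) and, between the imiquimod groups, Amd1 (from -0.032 to 0.077) and Nos2 (from -1.44 to 8.07). The cause was not tested. DEGs in IMQ + H2O against VAS + H2O numbered 1383 (3986 by adjusted p alone, 711 to 1314 when 1 library was left out). Leaving out VAS + H2O replicate 1, VAS + H2O replicate 2 or IMQ + H2O replicate 3 gave 857, 717 and 711. Between the imiquimod groups there were 5 DEGs, but 129 with DESeq2, 1 with all 9 libraries in 1 fit, 0 with the replicate block and 0 to 5 when 1 library was left out. In IMQ + XYF against VAS + H2O, 1371 became 5152 by adjusted p alone. Adding a log2 fold change of at least 1 left 7 of 17 pathway genes in IMQ + H2O and 7 of 18 in IMQ + XYF against VAS + H2O, and 1 of 2 genes of the set in each. Pathway genes called in IMQ + H2O ranged from 10 to 14 when 1 library was left out. Same-numbered libraries correlated at -0.13 to 0.11, so the numbers were not taken as pairs; with the replicate block 2, 0 and 2 genes of the set were called. With 3 libraries a group, low genes such as Nos2 could not be resolved, and library totals limit values near 3 counts.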

Other observations

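The genes whose log2 CPM were most like those of 2 genes of the set across the 9 libraries, among genes with a mean of at least 10 CPM, are given as a description, since the libraries fall into groups. Odc1 lay closest to Csf2rb2 (Pearson r = 0.91), a cytokine receptor chain, the polymerase subunit Pold4 (0.90) and the mitochondrial carrier Slc25a24 (0.88). Sat1 had Cecr2 (0.94), Vstm5 (0.91) and Rpap2 (0.91) as its neighbours.

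Further values of the marker lists follow. The 6 T cell markers, led by Thy1, summed to 103, 101 and 110 CPM in VAS + H2O, 151, 153 and 174 CPM in IMQ + H2O, and 154, 200 and 150 CPM in IMQ + XYF, yet 4 of the 6 fell and 1 rose in IMQ + H2O against VAS + H2O (edgeR). The 5 Langerhans cell markers, led by Cd74, summed to between 461 and 627 CPM in all libraries, with log2 fold changes from -0.27 to 0.29 in that comparison. There the log2 fold changes ran from -1.41 to 0.55 for 5 endothelial markers, led by Pecam1, from -1.11 to -0.30 for 5 melanocyte markers, led by Dct, and from -0.87 to -0.44 for 5 red blood cell markers, and these values did not pass an adjusted p of 0.05 (edgeR). The cause of these values was not tested.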
